A study of Mus musculus with 15 samples.

Results

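The 10 genes described here encode ligands of the bone morphogenetic protein and activin branches of the TGF-beta superfamily, and secreted proteins of the follistatin family. They are Gdf6, Bmp2, Bmp4, Bmp6, Bmp10, Inhba, Inhbb, Fst, Fstl1 and Fstl3. They were chosen by gene name from a table of 54532 genes, and all 10 were found there. Poly-A RNA of the left ventricle was sequenced in 3 groups of 5 libraries, from C57BL/6JRj mice, all female and 12 to 18 weeks old. The Sham group had sham surgery and vehicle (20% Captisol, a cyclodextrin). In the MI group the left descending coronary artery was tied off permanently, with no reperfusion, and the mice received the same vehicle. The GSK group received 20 mg/kg of GSK-343, an inhibitor of the histone methyltransferase EZH2, in 20% Captisol by daily intraperitoneal injection. Injections ran from 6 h after surgery to day 7 in all groups. Tissue was taken at day 8 in all groups. The sample names of the GSK group give the compound and not the surgery, so its hearts are taken as infarcted from the treatment description. Sham replicates 1 and 2 each mix the RNA of 2 animals, and no source used here says which region of the ventricle was sampled.

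BMP ligands bind pairs of type I and type II serine kinase receptors and act through Smad1, Smad5 and Smad9, and activins act through Smad2 and Smad3. Follistatin and follistatin-like 3 bind activins tightly and some BMPs more weakly, which keeps these ligands from their receptors. In the heart, BMPs are known for their part in valve and chamber development, and activin A and the follistatin-like proteins are known as secreted products of injured myocardium.

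Values are in FPKM, that is fragments per kilobase of gene times a scaling factor of the library. The libraries held 21534017 to 26843564 fragments, recovered from the steps of these values. The factor did not follow library size alone. In Sham replicate 5 and MI replicate 2, which were close in fragments, 1 fragment on 1 kb gave 0.0464 and 0.0357 FPKM. How the factor was set was not established. Mitochondrially encoded genes took 41.2 to 42.2% of summed FPKM in Sham, 23.2 to 40.6% in MI and 31.8 to 48.7% in GSK, and MI replicate 4 (40.6%) and GSK replicates 3 and 4 (46.4% and 48.7%) stood above the rest of their groups. The ventricular markers Myl2 and Myl3, both myosin light chain genes, were high in every group, at 3063 ± 398 and 2537 ± 261 FPKM in Sham (SD, n = 5). Atrial cardiomyocyte genes were also present, with Myl7, the atrial regulatory myosin light chain gene, at 3.35 to 749 FPKM over the 15 libraries.

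Infarction raised 5 of these 10 genes and lowered none in the fit across all genes, and the 5 belonged to the BMP-class ligands (Gdf6, Bmp4), the activin subunits (Inhba) and the follistatin family (Fstl1, Fstl3). A gene is called here when limma's adjusted p is under 0.05. A difference is that of log2(FPKM + 1) with its standard error (SE), which understates the change of genes near or below 1 FPKM. The filter on low values, at least 1 FPKM in at least 5 of 15 libraries, left 8 of the 10 in the fit, with Bmp10 and Fst outside it. Gdf6 passed through the infarcted groups alone, so the counts describe the genes and do not support a shift of the group. Of all 12585 genes tested, 21.9% passed as higher in MI against Sham and 21.9% as lower. The median difference of the 8 genes was 0.66 for MI against Sham and 0.50 for GSK against Sham, against -0.02 over all genes tested in each. In GSK against Sham, 4 of the 8 were called higher and 0 lower, with 10.8% of all genes called higher and 7.58% lower. Both comparisons use the same 5 Sham libraries and so share them. In GSK against MI no gene of the 8 was called by limma, 1 had an unadjusted p under 0.05, and limma-voom on the recovered fragments also called 0. That comparison called 0% of all genes tested, although 2638 had an unadjusted p under 0.05. The count over all genes depended on single libraries. Without MI replicate 1, 204 genes were called higher and 188 lower, and without GSK replicate 5, 154 and 134. The other single leave-outs called fewer or none. In bulk tissue, fewer cells of a type and less RNA per cell cannot be told apart, and this holds for every difference given here.

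**Figure D1:**
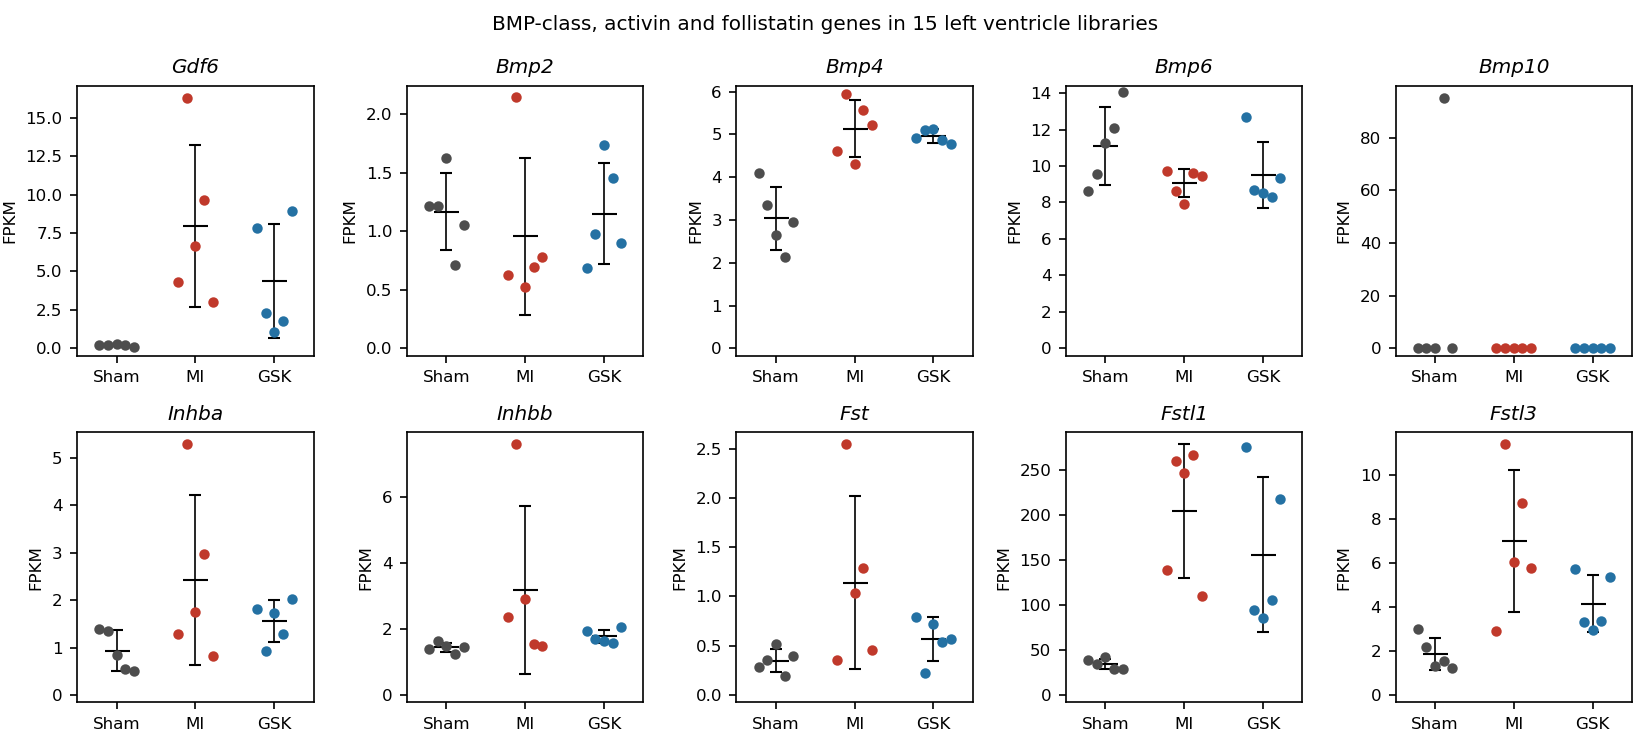
Each panel plots 1 gene, with FPKM on a linear axis and 1 point per library in replicate order; bars show the mean and SD of 5 libraries, and none are drawn for Bmp10. Gdf6, Bmp4 and Fstl1 lie higher in every MI and GSK library than in any Sham library, and Bmp10 is near 0 in all but Sham replicate 4 (94.9 FPKM).

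Gdf6 (ENSMUSG00000051279, chr4:9844372-9862345, mm10, plus strand), a BMP-class ligand best known from joint and skeletal development, had the largest difference between MI and Sham of the 8 genes. In Sham it was at 0.204, 0.228, 0.284, 0.240 and 0.118 FPKM in replicates 1 to 5, from 9 to 22 fragments a library. In MI it was at 4.30, 16.3, 6.63, 9.66 and 2.997 FPKM, from 273 to 1607 fragments. In GSK it was at 7.82, 2.28, 1.07, 1.81 and 8.90 FPKM. No infarcted library came near the Sham range, and the GSK libraries divided, with replicates 1 and 5 inside the MI range and replicates 2, 3 and 4 below its lowest library. The means were 0.215 ± 0.0614, 7.97 ± 5.28 and 4.38 ± 3.68 FPKM (SD, n = 5), so that MI was 37.1 times and GSK 20.4 times Sham. The difference was 2.69 ± 0.43 (SE) for MI against Sham (limma adjusted p = 0.000236) and 1.86 ± 0.43 for GSK against Sham (adjusted p = 0.01001). With a pseudocount of 0.1 these became 4.46 and 3.40, and with voom on fragments 4.99 and 3.96. GSK against MI was -0.83 ± 0.43 (adjusted p = 0.276), with a 95% interval from -1.75 to 0.08, so the fit leaves room for no change and for a fall of 1.75 on the log2 scale. It was -0.14 (adjusted p = 0.935) without MI replicate 4 and GSK replicates 3 and 4 and -0.55 without MI replicate 2.

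Gdf6 also changed rank among the BMP-class ligands. Its share of the summed FPKM of Gdf6, Bmp2, Bmp4 and Bmp6 was 0.650 to 1.80% in Sham, 16.2 to 49.3% in MI and 6.48 to 37.3% in GSK. FPKM is a level per length, so the genes can be compared on it. In Sham, Gdf6 had the lowest mean of these 4 genes, and in MI it was the second after Bmp6.

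Bmp4 (ENSMUSG00000021835, chr14:46383520-46390669, minus strand), a ligand of mesoderm, valve and vessel development, was higher in all infarcted libraries with little spread. It was at 4.09, 3.34, 2.66, 2.14 and 2.95 FPKM in Sham, at 4.62, 5.94, 4.31, 5.57 and 5.21 in MI and at 4.92, 5.11, 5.13, 4.87 and 4.77 in GSK. The highest Sham library, replicate 1, lay under the lowest MI library by a narrow margin, and the GSK libraries clustered in the middle of the MI range. MI against Sham was 0.62 ± 0.11 (limma adjusted p = 0.000489) and GSK against Sham 0.58 ± 0.11 (adjusted p = 0.00338). GSK against MI was -0.03 ± 0.11 (adjusted p = 0.879), and its 95% interval of -0.27 to 0.20 bounds the difference more closely than for any of the other 7 genes tested. The coefficient of variation of Bmp4 in GSK was 3.21%, against 84.2% for Gdf6 in the same 5 libraries. Bmp4 overlaps Gm15217 by 89 bases and the antisense gene Gm15222 by 1764 bases, both on the opposite strand. Whether counting used strand is not given in the sources used here, so reads of such partners cannot be told apart.

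Bmp6 (ENSMUSG00000039004, chr13:38345107-38500302, plus strand), the ligand that controls hepcidin and so iron balance, had the highest FPKM of the BMP-class ligands except in MI replicates 2 and 4, where Gdf6 was higher, and in Sham replicate 4, where Bmp10 was. It was at 8.62, 9.57, 11.2, 12.1 and 14.1 FPKM in Sham, at 9.70, 8.65, 7.93, 9.61 and 9.46 in MI and at 12.7, 8.67, 8.53, 8.31 and 9.32 in GSK. The groups overlapped, with the 2 mixed Sham libraries inside the MI range and Sham replicates 3 to 5 above it. The difference was -0.25 ± 0.13 for MI against Sham (limma adjusted p = 0.117), 0.05 ± 0.13 for GSK against MI (0.842) and -0.20 ± 0.13 for GSK against Sham (0.268). MI against Sham passed the threshold without the 2 mixed Sham libraries (-0.42, adjusted p = 0.0231) and without Sham replicate 1 alone (-0.33, 0.0465). Bmp6 overlaps the antisense gene 4930579J19Rik and the end of Txndc5 on the opposite strand.

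Bmp4 was lower than Bmp6 in every library, by differing amounts. Bmp4 was 0.177 to 0.474 times Bmp6 in Sham, 0.476 to 0.687 times in MI and 0.387 to 0.602 times in GSK. The ratio has no test here, since both genes were already tested singly.

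Bmp2 (ENSMUSG00000027358, chr2:133552159-133562885, plus strand), a close relative of Bmp4, was low and did not pass the test in any comparison. It was at 1.22, 1.22, 1.63, 0.716 and 1.06 FPKM in Sham, at 0.628, 2.15, 0.523, 0.699 and 0.785 in MI and at 0.688, 0.980, 1.74, 1.45 and 0.898 in GSK. All groups overlapped, and MI replicate 2 was above every other library while 3 of the 5 MI libraries were below every Sham library. The difference was -0.19 ± 0.19 for MI against Sham (limma adjusted p = 0.434, 95% interval -0.59 to 0.21), 0.17 ± 0.19 for GSK against MI (0.623) and -0.02 ± 0.19 for GSK against Sham (0.951).

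Bmp10 (ENSMUSG00000030046, chr6:87428994-87437677, plus strand), a ligand of the endothelial receptor Acvrl1 that the adult heart makes mainly in the right atrium, was found in 1 library. Sham replicate 4 held 94.9 FPKM from 9035 fragments. The other Sham replicates, 1, 2, 3 and 5, held 0.0401, 0.0179, 0.0203 and 0.0103 FPKM from 1 to 4 fragments each. MI replicate 1 had 2 fragments and GSK replicate 3 had 1, and the other infarcted libraries had 0, so all libraries but 1 were at or about the level of 3 fragments and no fold is given. All 5 GSK libraries lay below the lowest Sham library, a pattern found in 7.79% of all genes tested. But GSK replicate 3 and Sham replicate 5 each hold 1 fragment and differ by the scaling factor of the library alone. A permutation p is not given for Bmp10, since with 1 library this high it ranks only the few fragments of the others. In limma without a filter on low values the adjusted p was 0.435 for MI against Sham and 0.539 for GSK against Sham.

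Sham replicates 3 and 4 were the highest of their group in the atrial genes apart from Nr2f2, and replicate 3 had only 2 Bmp10 fragments. In Nr2f2, Sham replicate 5 (1.34 FPKM) was above replicate 4 (1.27 FPKM). Myl7 was at 210, 103, 749, 577 and 59.0 FPKM in Sham replicates 1 to 5. Sln, which encodes the atrial calcium pump regulator sarcolipin, was at 37.1, 11.7, 125, 121 and 9.64 FPKM, and the atrial light chain gene Myl4 at 41.7, 22.7, 127, 105 and 12.1. Nppa, the atrial natriuretic peptide gene, was at 180, 90.2, 356, 862 and 25.6 FPKM. Replicate 3 was thus the higher of the pair in Myl7, Sln and Myl4, and replicate 4 in Nppa. The summed level of the 7 atrial markers was 119 to 1716 FPKM in Sham, 307 to 2129.6 in MI and 352 to 2157 in GSK, and no marker of the list was at 0 in any group. Nppa was 275 of the 307 FPKM in MI replicate 5 and 2022 of the 2129.6 in MI replicate 2. Of the 7 it alone was called in MI against Sham, higher by 2.51 ± 0.87 (limma adjusted p = 0.0291). Myl7 (-2.68 ± 1.08, 0.0557), Sln (-2.09 ± 1.07, 0.126) and Myl4 (-1.88 ± 0.98, 0.129) were lower without passing. Nr2f2 (0.13), Dkk3 (-0.14) and Nr2f1 (-0.04) differed less. The part of atrial tissue in the Bmp10 value was not tested.

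**Figure D2:**
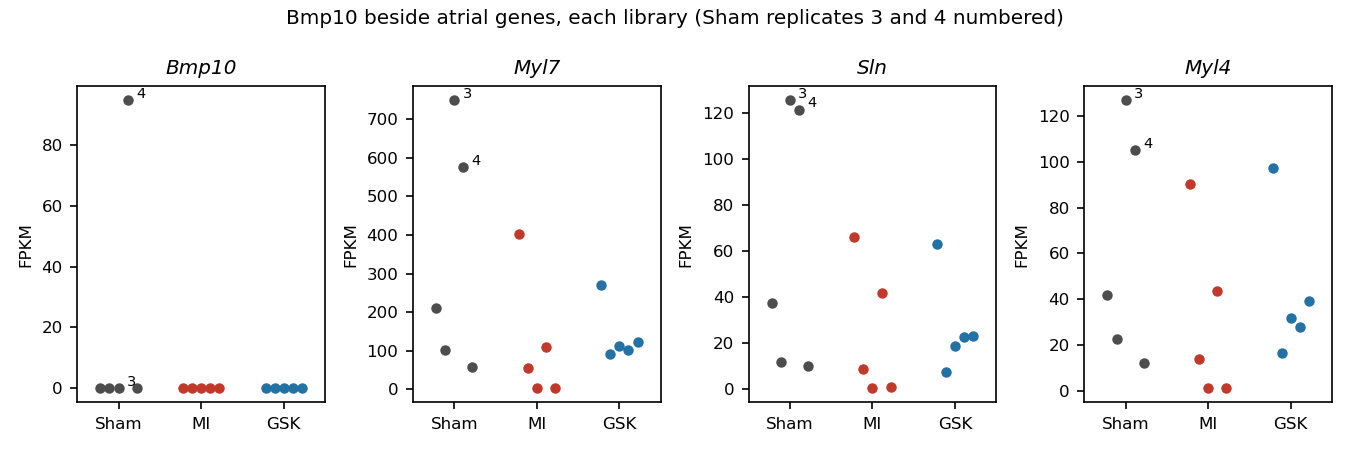
FPKM on linear axes for Bmp10 and the atrial genes Myl7, Sln and Myl4, with 1 point per library in replicate order and Sham replicates 3 and 4 numbered. Both numbered libraries are high in the atrial genes, and Bmp10 is high in replicate 4 alone (94.9 FPKM).

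Inhba (ENSMUSG00000041324, chr13:16011851-16031621, plus strand) encodes the beta A subunit, whose dimer is activin A. It was at 1.40, 1.36, 0.843, 0.546 and 0.501 FPKM in Sham, at 1.28, 5.30, 1.76, 2.98 and 0.819 in MI and at 1.81, 0.932, 1.73, 1.28 and 2.02 in GSK. MI replicates 2, 3 and 4 were above all Sham libraries, while MI replicates 1 and 5 lay inside the Sham range. MI against Sham was 0.71 ± 0.27 (limma adjusted p = 0.0439), and this call was lost in 16 of 26 alternatives, with adjusted p up to 0.119. Without MI replicate 2 it was 0.46 (adjusted p = 0.108), and with voom on fragments 1.20 (0.0569). GSK against MI was -0.30 ± 0.27 (adjusted p = 0.541), or -0.041 without MI replicate 2, and GSK against Sham was 0.42 ± 0.27 (0.289). Inhba overlaps the pseudogene B230303A05Rik and the antisense gene Gm48444 on the opposite strand.

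Inhbb (ENSMUSG00000037035, chr1:119415465-119422248, minus strand), the gene of the beta B subunit of activin B, did not pass the test. It was at 1.40, 1.63, 1.49, 1.24 and 1.46 FPKM in Sham, at 2.35, 7.61, 2.92, 1.54 and 1.49 in MI and at 1.93, 1.69, 1.64, 1.56 and 2.05 in GSK. Sham and GSK were each tight, and MI replicate 2 was far above the rest of its group. MI against Sham was 0.61 ± 0.25 (limma adjusted p = 0.0563) and was called in 4 of 26 alternatives, while without MI replicate 2 it was 0.31. GSK against MI was -0.43 ± 0.25 (adjusted p = 0.323), or -0.12 without MI replicate 2, and GSK against Sham was 0.18 ± 0.25 (0.634).

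MI replicate 2 thus had the highest FPKM of its group in Gdf6, Bmp2, Bmp4, Inhba, Inhbb, Fst and Fstl3. It also had the highest summed level of activated fibroblast markers (565 FPKM) and the lowest of ventricular cardiomyocyte markers (3490.6 FPKM) of the 5 MI libraries. The part of tissue composition in these levels was not tested.

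Fst (ENSMUSG00000021765, chr13:114452290-114458951, minus strand) encodes follistatin, the soluble antagonist of activins. It reached 1 FPKM in 3 libraries and so did not pass the filter. It was at 0.285, 0.350, 0.517, 0.195 and 0.394 FPKM in Sham, at 0.357, 2.55, 1.03, 1.29 and 0.456 in MI and at 0.787, 0.219, 0.723, 0.538 and 0.567 in GSK. MI replicates 2, 3 and 4, those above Sham in Inhba, were above Sham here too, and MI replicates 1 and 5 were not. The means were 0.348 ± 0.121, 1.14 ± 0.879 and 0.567 ± 0.220 FPKM (SD, n = 5). The exact two-sided permutation p over 252 assignments, the smallest possible being 0.00794 and with no adjustment, was 0.0476 for MI against Sham, which was 0.0556 without MI replicate 2 (a difference of 0.436 FPKM in place of 0.788) and was lost in 6 of 10 leave-outs. It was 0.175 for GSK against MI and 0.0873 for GSK against Sham. In limma without a filter, MI against Sham was 0.58 ± 0.21 (adjusted p = 0.0756). Fst overlaps Gm47040, an antisense gene, by 289 bases.

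Fstl3 (ENSMUSG00000020325, chr10:79777272-79782630, plus strand) encodes follistatin-like 3, a secreted binder of activins and myostatin. It was at 2.99, 2.17, 1.31, 1.54 and 1.23 FPKM in Sham, at 2.91, 11.4, 6.07, 8.74 and 5.79 in MI and at 5.73, 3.31, 2.97, 3.35 and 5.37 in GSK. MI replicate 1 and GSK replicate 3 reached just into the Sham range, and the other 4 libraries of each infarcted group were above it. The means were 1.85 ± 0.735, 6.99 ± 3.23 and 4.15 ± 1.29 FPKM (SD, n = 5). MI against Sham was 1.42 ± 0.26 (limma adjusted p = 0.000674) and was called in every alternative run. GSK against Sham was 0.85 ± 0.26 (adjusted p = 0.0369), a call lost in 10 of 26 alternatives with adjusted p up to 0.107. GSK against MI was -0.57 ± 0.26 with an unadjusted p of 0.0486 and an adjusted p of 0.236, and was -0.29 without MI replicate 4 and GSK replicates 3 and 4. Fstl3 overlaps Prss57 by 1157 bases on the opposite strand.

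The level of the activin binders relative to Inhba was also taken per library. The sum of Fst and Fstl3 was 1.86 to 3.25 times Inhba in Sham, 2.56 to 7.62 times in MI and 2.14 to 3.79 times in GSK on the FPKM scale. The 3 ranges overlap, and MI holds the highest values.

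Fstl1 (ENSMUSG00000022816, chr16:37776873-37836514, plus strand) encodes a secreted glycoprotein of mesenchymal cells that shares the follistatin domain. It was the most abundant of the 10 genes in every infarcted library. It was at 38.3, 34.7, 42.1, 28.5 and 29.3 FPKM in Sham, at 139, 261, 247, 267 and 110 in MI and at 276, 94.2, 85.8, 106 and 218 in GSK. All infarcted libraries were above all Sham libraries, and as in Gdf6 the GSK libraries split, with replicates 1 and 5 high and replicates 2, 3 and 4 below the lowest MI library. The means were 34.6 ± 5.82, 205 ± 74.5 and 156 ± 85.9 FPKM (SD, n = 5), or 5.92 times Sham in MI and 4.51 times in GSK. MI against Sham was 2.46 ± 0.33 (limma adjusted p = 7.26e-05), GSK against Sham 1.99 ± 0.33 (0.00148) and GSK against MI -0.47 ± 0.33 (0.419), with a 95% interval of -1.17 to 0.23. The last was 0.011 without MI replicate 4 and GSK replicates 3 and 4.

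With Bmp10 left aside, the order of mean FPKM in Sham was Fstl1, Bmp6, Bmp4, Fstl3, Inhbb, Bmp2, Inhba, Fst and Gdf6. Neighbours in that order had overlapping ranges from Bmp4 downward. In MI it was Fstl1, Bmp6, Gdf6, Fstl3, Bmp4, Inhbb, Inhba, Fst and Bmp2, and only Fstl1 was apart from its neighbour. In GSK it was Fstl1, Bmp6, Bmp4, Gdf6, Fstl3, Inhbb, Inhba, Bmp2 and Fst, with gaps after Fstl1, Bmp6 and Fstl3. Gdf6 was thus last in Sham, next to Bmp6 in MI and next to Bmp4 in GSK.

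Without overlap between groups, 3 of the 10 genes (Gdf6, Bmp4 and Fstl1) were higher in all MI than in all Sham libraries, and the same 3 were in GSK against Sham. Of all genes tested, 15.7% were higher without overlap in MI than in Sham and 10.6% in GSK than in Sham. In the other direction the shares were 14.2% for MI against Sham, with no gene of the 10. For GSK against MI no gene of the 10 separated the groups in either direction, against 1.15% of all genes above and 0.858% below.

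**Figure D3:**
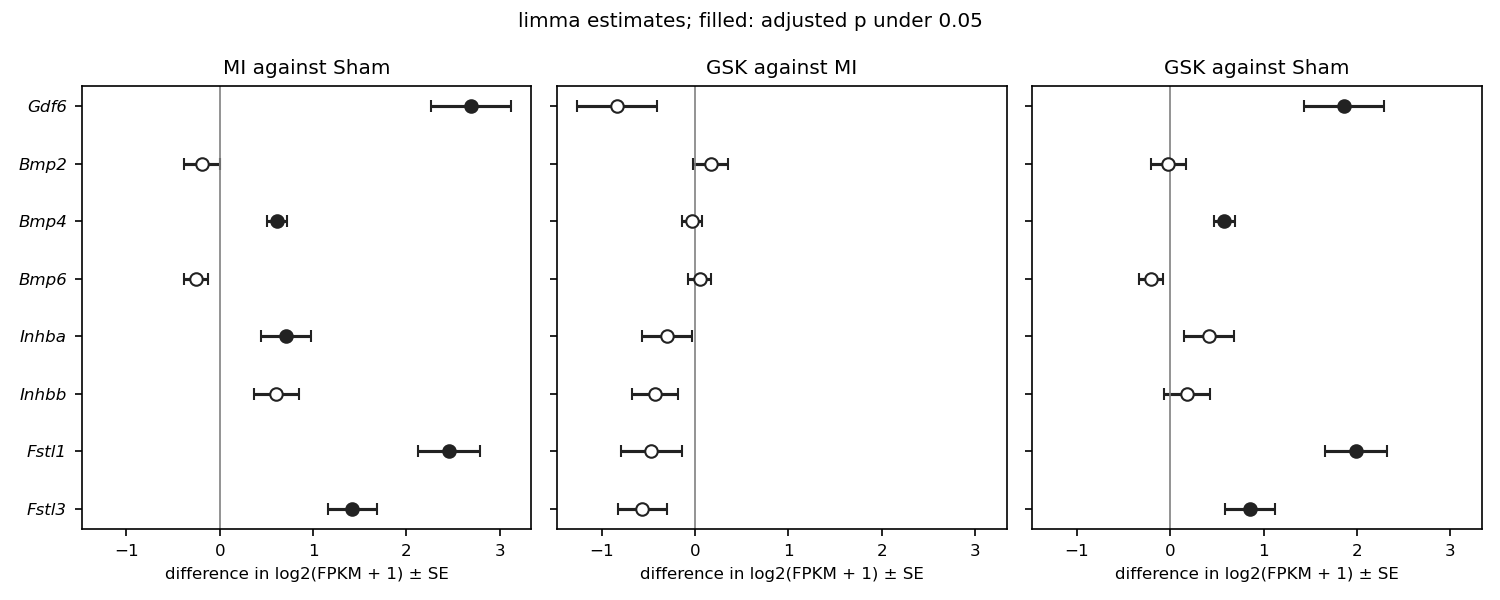
Differences of log2(FPKM + 1) with their SE for the 8 genes that passed the filter on low values, in 3 comparisons; filled points have a limma adjusted p under 0.05. The filled points are 5 in MI against Sham and 4 in GSK against Sham, and there are none in GSK against MI.

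Gdf6, Fstl1, Fstl3 and Inhba varied together within the groups as well as between them, and Bmp4 did so in part. Over the 15 libraries, and on log2(FPKM + 1), Pearson's r between Gdf6 and Fstl1 was 0.969, and it was 0.908 once each group's mean was taken out. It was 0.889 and 0.688 between Fstl1 and Fstl3, and 0.834 and 0.778 between Inhba and Fstl3. For Bmp4 the r with Fstl1 was 0.800 over all libraries and 0.103 within groups, and with Gdf6 it was 0.749 and 0.108. With Fstl3 it was 0.824 and 0.556, and with Inhba 0.678 and 0.539. The points share their libraries, so these values only describe the 15 libraries.

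The genes most like each member across the same libraries were taken from all protein-coding genes tested, by Pearson's r. For Gdf6 they were Tnfrsf1b (0.981), a TNF receptor gene, Lox (0.980), which encodes the collagen cross-linking enzyme lysyl oxidase, and Cap1 (0.976). For Fstl1 they were the extracellular matrix genes Adamts2 (0.992), Mfap5 (0.990) and Sparc (0.989). For Fstl3 they were Tgfb2 (0.968), Actn1 (0.967) and Arpc2 (0.965), and for Inhba Tgfbr1 (0.947), Mdfic (0.939) and Pafah1b2 (0.937). Bmp4 was nearest to Mtmr2 (0.933) and Inhbb to Ldb2 (0.939). For Inhbb and Ldb2 the rank correlation (Spearman) was lower, at 0.746, and MI replicate 2 was far above the rest in Inhbb. Bmp2 and Bmp6, which passed no test, were nearest to Gnai1 (0.864) and Ndst1 (0.850). Depth and tissue composition are shared by all points of these correlations.

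Of the activated fibroblast markers 4 of 6, and of the macrophage markers 6 of 6, were called higher in MI than in Sham. Those of fibroblasts in general went both ways. The summed FPKM of 6 activated fibroblast markers was 148 to 163 in Sham, 211, 565, 560, 480 and 340 in MI and 452, 160, 224, 199 and 404 in GSK. Of the 6, 4 (Postn, Cthrc1, Ddah1 and Comp) were called higher in MI than in Sham and 2 in GSK than in Sham. Fmod (0.34 ± 0.38, limma adjusted p = 0.493) and Acta2 (-0.19 ± 0.28, 0.604) were not called in MI against Sham. Acta2 had means of 111, 108 and 77.0 FPKM in Sham, MI and GSK, and so made up most of the Sham sum. The sum over 6 macrophage markers was 122 to 159 FPKM in Sham, 293 to 458 in MI and 394, 227, 183, 156 and 315 in GSK, with 6 of 6 called higher in MI. Of 6 general fibroblast markers, 3 (Col1a1, Tcf21 and Lum) were called higher and 1 (Gsn) lower in MI. Their sum was 935 to 1344 FPKM in Sham, 740.5 to 929.7 in MI and 808 to 1196 in GSK. Gsn weighs heavily on this sum, with means of 862, 304 and 512 FPKM in Sham, MI and GSK. The sum is thus no measure of the other markers of its list. GSK replicates 1 and 5, high in Gdf6, Fstl1 and Fstl3, were the highest of their group in the activated fibroblast and macrophage sums. Of 6 ventricular cardiomyocyte markers, 3 were called lower and 1 higher in MI, and their sum was 6432 to 8368 FPKM in Sham, 3490.6 to 7249.6 in MI and 4761 to 7224 in GSK. No marker of these 4 lists was at 0 in a group. Taking out the group means, and on log2 values of the 15 libraries, the r with the activated fibroblast sum was 0.861 for Fstl1, 0.796 for Gdf6, 0.781 for Fstl3, 0.600 for Inhba and 0.0896 for Bmp4. With the macrophage sum it was 0.796 for Fstl1, 0.788 for Gdf6, 0.479 for Fstl3, 0.348 for Inhba and -0.139 for Bmp4. With the ventricular cardiomyocyte sum it was -0.609 for Fstl1, -0.565 for Gdf6, -0.443 for Fstl3, -0.784 for Inhba and -0.122 for Bmp4. For Fst and Inhbb the r was 0.679 and 0.380 with the activated fibroblast sum. It was 0.435 and 0.490 with the macrophage sum, and -0.849 and -0.605 with the ventricular cardiomyocyte sum. The part of cell composition in the members' differences was not tested.

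**Figure D4:**
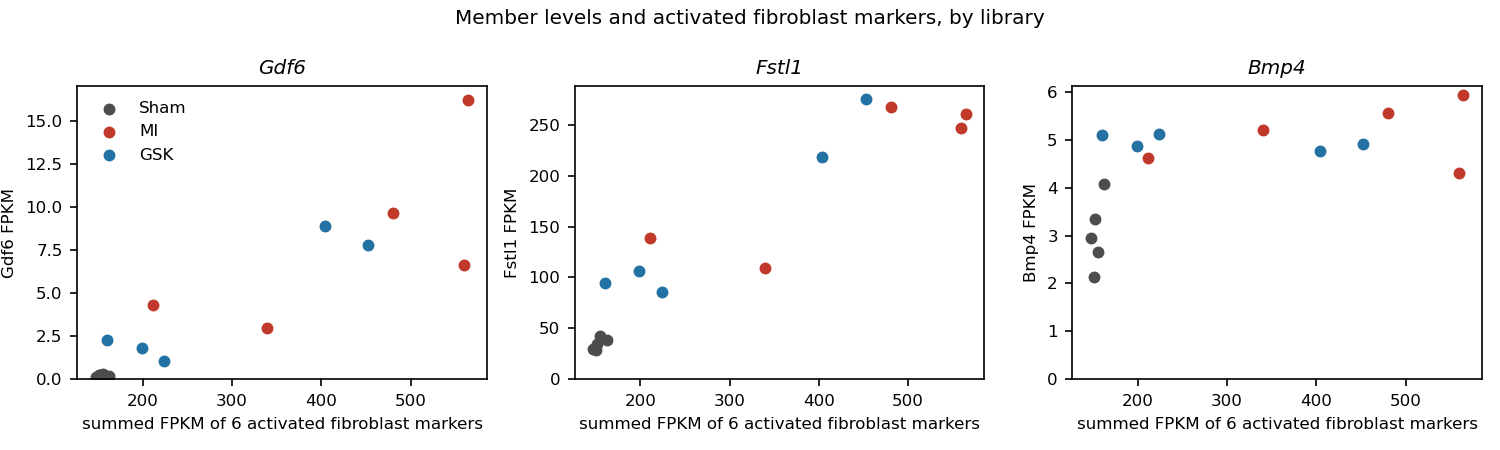
FPKM of Gdf6, Fstl1 and Bmp4 (vertical axes) against the summed FPKM of 6 activated fibroblast markers (horizontal axes), 1 point per library. Gdf6 and Fstl1 climb with the sum across the infarcted libraries, while Bmp4 stays between 4.31 and 5.94 FPKM in all of them.

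The promoter sequences of 4 genes are shown because their start sites lie within 2 bases of the gene starts in the table: Bmp4, Fstl3 and Inhba as called members, and Bmp10 as the one found in a single library. Of the 10 members, 7 had an entry among RefSeq promoters (GRCm38.p6). Each run holds the 250 bases before the start site, 5′ to 3′ on the gene's strand, in lower case with matched motifs in capitals. The windows are chr14:46390670-46390919 for Bmp4, chr10:79777024-79777273 for Fstl3, chr13:16011601-16011850 for Inhba and chr6:87428744-87428993 for Bmp10.
Bmp4: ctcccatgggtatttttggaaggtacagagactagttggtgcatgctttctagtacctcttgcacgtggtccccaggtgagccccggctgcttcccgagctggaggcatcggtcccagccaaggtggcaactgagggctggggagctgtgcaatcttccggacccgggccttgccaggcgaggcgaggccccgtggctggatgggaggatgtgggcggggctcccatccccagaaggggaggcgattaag
Fstl3: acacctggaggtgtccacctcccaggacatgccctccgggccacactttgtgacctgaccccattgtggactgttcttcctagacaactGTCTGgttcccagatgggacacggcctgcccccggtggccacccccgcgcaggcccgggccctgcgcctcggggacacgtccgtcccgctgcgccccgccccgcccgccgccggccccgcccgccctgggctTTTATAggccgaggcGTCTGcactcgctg
Inhba: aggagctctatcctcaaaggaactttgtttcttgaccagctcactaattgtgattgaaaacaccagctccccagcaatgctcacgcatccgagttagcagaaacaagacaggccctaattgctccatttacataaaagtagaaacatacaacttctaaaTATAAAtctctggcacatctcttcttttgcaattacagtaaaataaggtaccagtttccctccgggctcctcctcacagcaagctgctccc
Bmp10: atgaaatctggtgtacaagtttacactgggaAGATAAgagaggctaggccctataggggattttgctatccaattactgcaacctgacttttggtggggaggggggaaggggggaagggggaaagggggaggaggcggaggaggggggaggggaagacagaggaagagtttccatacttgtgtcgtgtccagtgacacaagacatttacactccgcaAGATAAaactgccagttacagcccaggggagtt

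The letters searched on both strands were the Smad palindrome GTCTAGAC, the Smad-binding core CAGAC, the BMP element GGCGCC, the AP-1 site TGANTCA, the TEAD site CATTCC, the TATA box TATAAA and the GATA site AGATAA. The palindrome does not hold the core on either strand. Over all 27025 promoters, windows of the same length held these in 0.174%, 42.1%, 9.54%, 6.87%, 12.6%, 13.0% and 10.3%. Fstl3 held CAGAC on the other strand with its first base at -14 and -161 from the start site, and TATAAA on the other strand at -29. Inhba held TATAAA at -91, and Bmp10 held AGATAA at -219 and -33. Bmp4 held none of the 7. Fstl3 had 22 CpG and Bmp4 11, above the median of 6 over all promoters, while Inhba and Bmp10 had 3 each. These are matches of letters and say nothing of binding.

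The other genes of the pathway moved in both directions in MI against Sham. Of 22 further ligands only 3 passed the filter on low values, and 2 of them were called higher, beside 21.9% of all genes. Both had means under 1 FPKM in Sham, 0.970 for Gdf15 and 0.897 for Lefty1. In the lists below, so did Ror2 (0.444), Chrd (0.504), Kcp (0.757), Tgif1 (0.780) and Sox9 (0.891), all called higher. Genes this low in Sham can pass the filter through the infarcted libraries. The counts called higher therefore do not support a shift of any list. Gdf15, a stress-induced cytokine, went from 0.970 ± 0.684 to 5.55 ± 4.46 FPKM (SD, n = 5; difference 1.49 ± 0.42 SE, limma adjusted p = 0.00950). Lefty1, an inhibitor of nodal, rose by 0.52 ± 0.15 (adjusted p = 0.0140), and Inha, the inhibin alpha subunit, was at -0.17 ± 0.17 (0.447).

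Of 16 receptors and co-receptors 14 were tested, 3 were called higher and 4 lower, and their median difference was -0.17, beside 21.9% of all genes called in each direction and a median of -0.02. Acvr2b, a type II receptor for activins, fell by 0.43 ± 0.09 (limma adjusted p = 0.00155), and Hfe2, which encodes the BMP co-receptor hemojuvelin, fell by 1.02 ± 0.25 (0.00376), from 149 ± 7.88 to 77.6 ± 28.7 FPKM. Tgfbr3 and Rgma were the other 2 that fell. Acvrl1, the type I receptor that binds Bmp10, rose by 0.54 ± 0.11 (0.00156), and Ror2, a receptor tyrosine kinase best known for Wnt5a, by 0.64 ± 0.14 (0.00180), beside Acvr1. The BMP receptors Bmpr1a (-0.23 ± 0.17, adjusted p = 0.289) and Bmpr2 (-0.20 ± 0.16, 0.322) did not pass the test.

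Of 22 extracellular antagonists and modulators 13 were tested, 3 were called higher and 3 lower, with a median of -0.07, again beside 21.9% of all genes in each direction. Dand5, a Cerberus-family antagonist, fell by 0.66 ± 0.13 (limma adjusted p = 0.000865), and Crim1, a transmembrane BMP binder, by 0.35 ± 0.08 (0.00254). Chrd, which encodes chordin, rose by 0.45 ± 0.11 (0.00535) and Kcp, its relative kielin, by 0.50 ± 0.15 (0.0138). Twsg1 also fell and Nbl1 also rose.

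Of 14 Smads and Smad regulators 13 were tested, 3 were called higher and 2 lower, with a median of 0.15, beside the same 21.9% each way. Smad1, a BMP-branch Smad, rose from 2.34 ± 0.370 to 4.44 ± 0.821 FPKM (SD, n = 5; 0.70 ± 0.11 SE, limma adjusted p = 0.000252), while Smad3 of the activin branch fell by 0.28 ± 0.10 (0.0288). The corepressor gene Tgif1 rose by 0.95 ± 0.13 (7.92e-05) and the ubiquitin ligase gene Smurf1 by 0.30 ± 0.10 (0.0195). Zfyve9, the Smad anchor, was the other that fell.

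Of 18 transcriptional targets of BMP signalling 12 were tested, 3 were called higher and 1 lower, with a median of 0.19, against the 21.9% of all genes in each direction. Sox9 rose by 1.13 ± 0.22 (limma adjusted p = 0.000951), Id3 by 0.71 ± 0.17 (0.00368) and Atoh8 by 0.49 ± 0.15 (0.0160). Gata6 fell by 0.40 ± 0.09 (0.00337). Id1 and Smad6, both common readouts of BMP signalling, did not pass the test, at -0.37 ± 0.19 (0.126) and -0.02 ± 0.11 (0.888).

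Of 9 processing proteases and their enhancers 6 were tested and 2 were called higher, beside 21.9% of all genes, and none lower. Bmp1, which despite its name encodes a protease that cleaves procollagen and chordin, rose from 6.69 ± 0.702 to 17.7 ± 5.90 FPKM (SD, n = 5; 1.23 ± 0.24 SE, limma adjusted p = 0.00102). Pcolce, its enhancer, rose by 1.41 ± 0.16 (2.73e-05). Pcolce2, a related enhancer gene, was at 0.26 ± 0.11 (0.0598), and the proprotein convertase genes Pcsk6 and Furin were at -0.40 ± 0.17 (0.0744) and 0.16 ± 0.11 (0.258).

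In GSK against Sham, where the shares over all genes were also lower (10.8% called higher and 7.58% lower), 6 of these genes passed the test. Smad1 rose by 0.52 ± 0.11 (limma adjusted p = 0.00704), Tgif1 by 0.56 ± 0.13 (0.00970), Sox9 by 0.83 ± 0.22 (0.0190), Pcolce by 0.93 ± 0.16 (0.00163) and Pcolce2 by 0.37 ± 0.11 (0.0294), and Dand5 fell by 0.48 ± 0.13 (0.0193). None of the receptors or further ligands was called. In GSK against MI no gene of any of the 6 lists was called by limma. A gene called in MI and not in GSK against the same Sham libraries is not shown to differ between them, since the direct comparison called none.

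**Figure D5:**
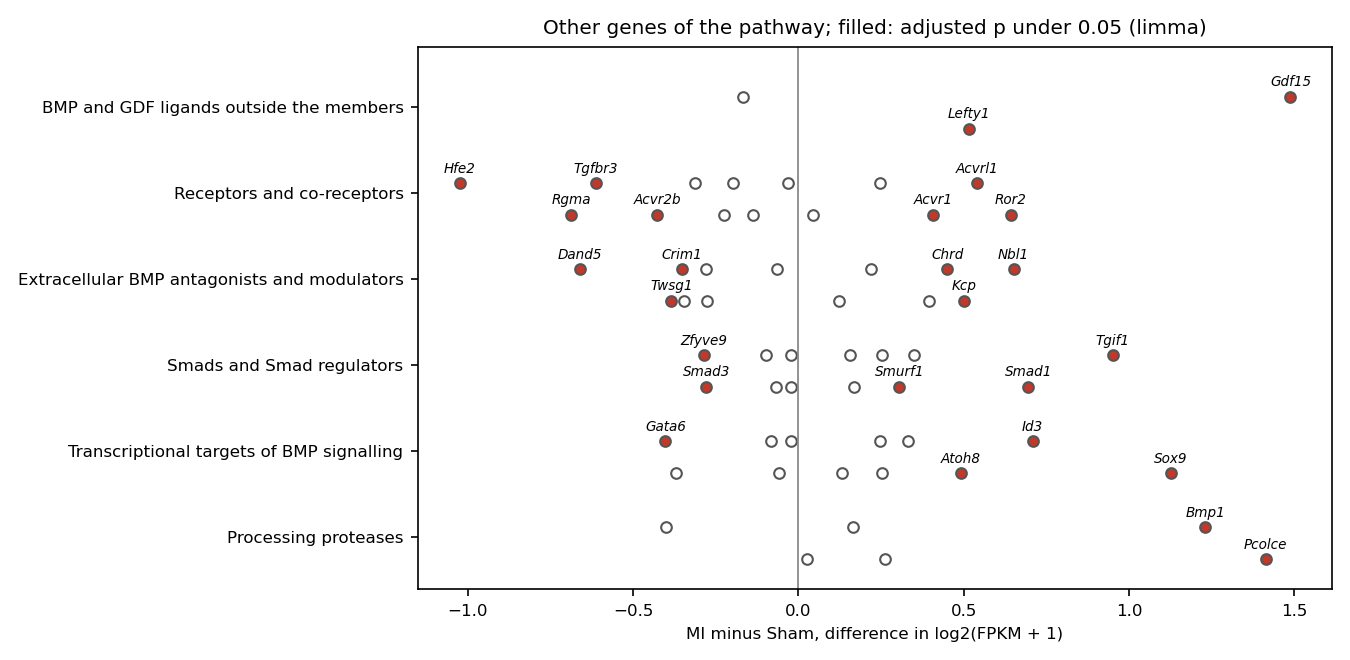
Differences of log2(FPKM + 1) between MI and Sham for the tested genes of 6 pathway lists, 1 point per gene and list, filled and named where the limma adjusted p is under 0.05. Ligands and proteases have filled points to the right alone, and the other 4 lists have them on both sides.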

How the data were processed

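FPKM values per gene for 15 libraries, deposited by the authors in 1 table, were used as they stand. The submitters' processing notes name HISAT2, featureCounts, Subread, DESeq2, R 3.5.1 and mm10, with no order or role, while annotation and strand setting were not given in the sources used. Whole fragments were recovered from the FPKM steps and gene lengths, with 100% of values whole within 0.01. The 12585 genes that reached 1 FPKM in 5 or more libraries were fitted as log2(FPKM + 1) in limma 3.58.1 (R 4.3.3) over all 3 groups, with trended variance and Benjamini-Hochberg adjustment over all genes. Fst, below the filter, was tested by exact permutation over libraries, and Bmp10 was left as values. The fit was tested on simulated data first. Per the labels, libraries come from independent mice, apart from the 2 mixed Sham libraries. The name S5 stands in the titles of both Sham replicate 2 (S5_S7_mixed) and MI replicate 3 (S5). Whether it numbers animals within a group or over all groups was not established.

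The members and gene lists were chosen with earlier results of these data known. The named genes are all 10 members, up to 4 of lowest p in each pathway list, the 3 most alike genes where given, and others named as examples after their values were seen; Hjv was matched to the table's Hfe2 by synonym. Gene overlaps come from GENCODE vM21. Alternatives were other pseudocounts, filters and scalings, voom with TMM scaling on the fragments, a replicate block, and leaving out libraries. The replicate numbers were checked for pairing, and they share only a number.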

Additional observations from a re-analysis of the deposited data

Results flagged for a closer look

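A library far from the 4 others of its group was found in 6 of the 30 combinations of gene and group, where chance gives about 1 in 20. Bmp2 in MI replicate 2 was at 2.15 FPKM and Inhbb in the same library at 7.61 FPKM, both above the rest of MI. Bmp6 in GSK replicate 1 was at 12.7 FPKM, above the rest of GSK. Bmp10 was at 94.9 FPKM in Sham replicate 4. It was also singled out in MI replicate 1 (0.0166 FPKM) and GSK replicate 3 (0.0101 FPKM), which rest on 2 fragments and 1 fragment in groups that are otherwise at 0.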

How the results depend on the processing

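The count of called members stayed within 1.5 times its value in 78 of 78 recomputations: 4 to 6 for MI against Sham, 0 throughout for GSK against MI, and 3 to 4 for GSK against Sham. No called difference changed sign. In GSK against MI, without MI replicate 4 and GSK replicates 3 and 4, Bmp2 was -0.062 and Fstl1 0.011. Bmp6 was -0.049 without the GSK libraries named with G. Over the leave-outs of a single library, Bmp4 ran from -0.084 to 0.012 (without MI replicate 2), Bmp6 from -0.050 (without GSK replicate 1) to 0.089, and Bmp10 from -0.00332 to 0.00202 FPKM (without MI replicate 1). In GSK against Sham, Bmp2 was 0.052 with mitochondrial genes left out and totals equalised, 0.011 without the mixed Sham libraries and 0.12 without the GSK libraries named with G, and over single leave-outs it ran from -0.11 (without GSK replicate 3) to 0.061 (without GSK replicate 1), being above 0 in 4 of these. The cause was not tested. With mitochondrial genes left out, all genes split into 3302 higher and 1903 lower for MI against Sham, from 2757 and 2758, and into 1945 and 426 for GSK against Sham, from 1354 and 954.

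The replicate numbers do not pair the libraries: same-numbered libraries had correlations of their deviations from -0.411 to 0.486. Only MI replicate 5 (against Sham) and GSK replicate 4 (against MI) correlated best with the library of their own number. With the replicate block, 4 members were called in MI against Sham, 0 in GSK against MI and 3 in GSK against Sham. Inhba (adjusted p = 0.0651) and Fstl3 in GSK against Sham (0.0744) lost their calls, and all genes gave 924 higher and 535 lower for GSK against Sham. Gdf6 in Sham rests on 9 to 22 fragments a library, which limits its fold.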
